A study of Mus musculus with 24 samples.

Results

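The baseline transcriptome of mouse blastocysts from lean parents was described from 8 of the 24 arrays of the series, those whose titles place them with the control diet in both parents. They comprised 4 pools of female embryos (arrays 13 to 16) and 4 pools of male embryos (arrays 1 to 4). The animals were outbred NMRI mice (RjHan:NMRI) without any engineered allele. Mother and father had been 3 weeks old when they were put on the control diet to D12492, ate it for 9 weeks, and mated at an age of 12 weeks. Embryos were collected at day 3.5 post coitum, and each array carried the joined lysates of 3 embryos of the same sex taken from 1 mother. The labels name a control cohort of 14 animals without saying which mother gave which pool, so pools may share a mother, and p-values here measure the spread between pools. All values are log2 intensities, the arrays of other parents entered only as a shared estimate of spread in the comparison of the sexes, and no diet effect was examined.

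The blastocyst is the last stage before implantation. Its outer epithelium, the trophectoderm, pumps fluid into a cavity and later forms the fetal part of the placenta, while the inner cell mass separates into the epiblast, which founds the embryo proper, and the primitive endoderm, which lines the yolk sac. The trophectoderm is specified by Tead4 and Cdx2 in cells with low Hippo signalling, the inner cell mass is marked by Pou5f1, Nanog and Sox2, and the primitive endoderm by Gata6, Gata4 and Sox17 under FGF signals. By this time the maternal transcripts of the oocyte have been largely replaced by the embryo's own.

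The table holds no detection calls, so a background was taken from 1237 chemoreceptor genes (odorant, vomeronasal, trace-amine and bitter taste receptors), which work in sensory cells. The 95th percentile of these genes on an array served as its background and lay between 3.11 and 3.49. A gene is called well detected here when it exceeded the background on 8 of 8 arrays, partly detected on 1 to 7 and not above background on 0. Of 19938 genes, 2880 (14.4%) were well detected, 4887 were partly detected and 12171 were not above background. Among the chemoreceptors themselves, 29 (2.34%) passed on all 8 arrays, the brightest at 5.12. A probe set therefore can lie modestly above this background without a known reason for expression in the embryo, and the counts below are to be read against 14.4%.

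The arrays were not equally informative. The standard deviation of all values on an array, called its signal spread below, was 1.27 for male array 4 and 1.29 for male array 1, 1.36 for female array 13, and between 1.42 and 1.53 for the other 5. The mean of the 100 brightest genes was 6.37 on male array 4 and 6.83 on male array 1, against 7.76 to 8.59 on the other 6 arrays. Pairs of arrays correlated with r between 0.830 and 0.936 over the whole table, and the lowest r was 0.866 without male array 4. Genes above background numbered 4075 on male array 4, 4550 on male array 1 and 4748 to 5925 elsewhere. Both arrays carry the same labels as the other male pools. The mean of the chemoreceptors was highest on these arrays, 2.15 on male array 4 and 2.09 on male array 1, so dim values were not low there. Fewer cells, less RNA per cell and the processing of the arrays cannot be told apart in such pools. The part of each in the values of male arrays 1 and 4 was not tested. Counts of well detected genes that move by more than 1.5 times without both arrays, or without 1 array, are given both ways.

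The brightest genes served protein synthesis and mitochondrial respiration. The 25 genes with the highest means lay between 8.38 and 11.75, and 9 of them encode proteins of the cytosolic ribosome. The order of signals depends on the probes as well as on the transcripts, so it is an order of brightness and not of abundance. Rps12, a protein of the small ribosomal subunit, read 10.80, 11.69, 11.80 and 11.70 in the female pools and 10.36, 11.43, 11.59 and 9.94 in the male pools. Its lowest values came from male arrays 4 and 1, yet it lay above 9 on every one of the 8 arrays. Rpl36a (9.78 ± 0.97, SD, n = 8), Rps14 (8.99 ± 1.12), Rps20 (8.97 ± 1.29), Rpl27a (8.96 ± 0.93), Rps6 (8.86 ± 1.28), Rps29 (8.77 ± 0.97), Rpl23a (8.48 ± 0.97) and Rps21 (8.38 ± 0.98) were the other ribosomal proteins. Ribosomal protein genes have many near-identical processed copies in the genome, and Rps12 alone was named by 14 probe sets with means between 7.48 and 11.16, so signals of copies and of the parent gene cannot be told apart.

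Genes of mitochondrial respiration formed the next group. COX2 and ND3, which the mitochondrial genome encodes as subunits of cytochrome c oxidase and of NADH dehydrogenase, had means of 10.89 ± 0.78 and 9.40 ± 0.84. COX2 read 10.75, 11.51, 11.37 and 11.56 in the female pools and 9.48, 11.08, 11.45 and 9.95 in the male pools. The nuclear genes Cox6c (8.71 ± 1.07) and Cox6b1 (8.45 ± 1.21) encode further subunits of cytochrome c oxidase, and Atp5mpl (8.41 ± 0.85) a small subunit of the ATP synthase. All 5 were above background on every array.

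The other bright genes had varied roles. Cd63, a tetraspanin of late endosomes, stood at 9.81 ± 0.78 and Tmsb10, which binds actin monomers, at 9.11 ± 1.0. Eef1a1, the factor that delivers transfer RNA to the ribosome, stood at 9.0 ± 0.64 and Tpt1, the translationally controlled tumour protein, at 8.90 ± 1.5. Calm2, a calmodulin gene (8.77 ± 1.17), Ube2d3, a ubiquitin-conjugating enzyme (8.61 ± 1.33), and the noncoding RNAs Gas5 (8.86 ± 1.22) and Rn7sk (8.75 ± 1.12) were also among them. Dppa5a was the only gene of the lineage lists in the group, at 9.05 ± 1.5. The first and the second place went to Baiap2l1, an adaptor of the actin cytoskeleton, at 11.75 ± 0.77, and to the noncoding transcript AY036118, at 11.70 ± 0.63. The 3 probe sets of Baiap2l1 read 11.75, 10.26 and 2.89 and those of Gas5 ranged from 1.67 to 8.86, so the level of either gene is not settled by these data. Among the 100 brightest genes, 13 had a gap of more than 2 log2 units between their brightest and second probe set.

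**Figure D1:**
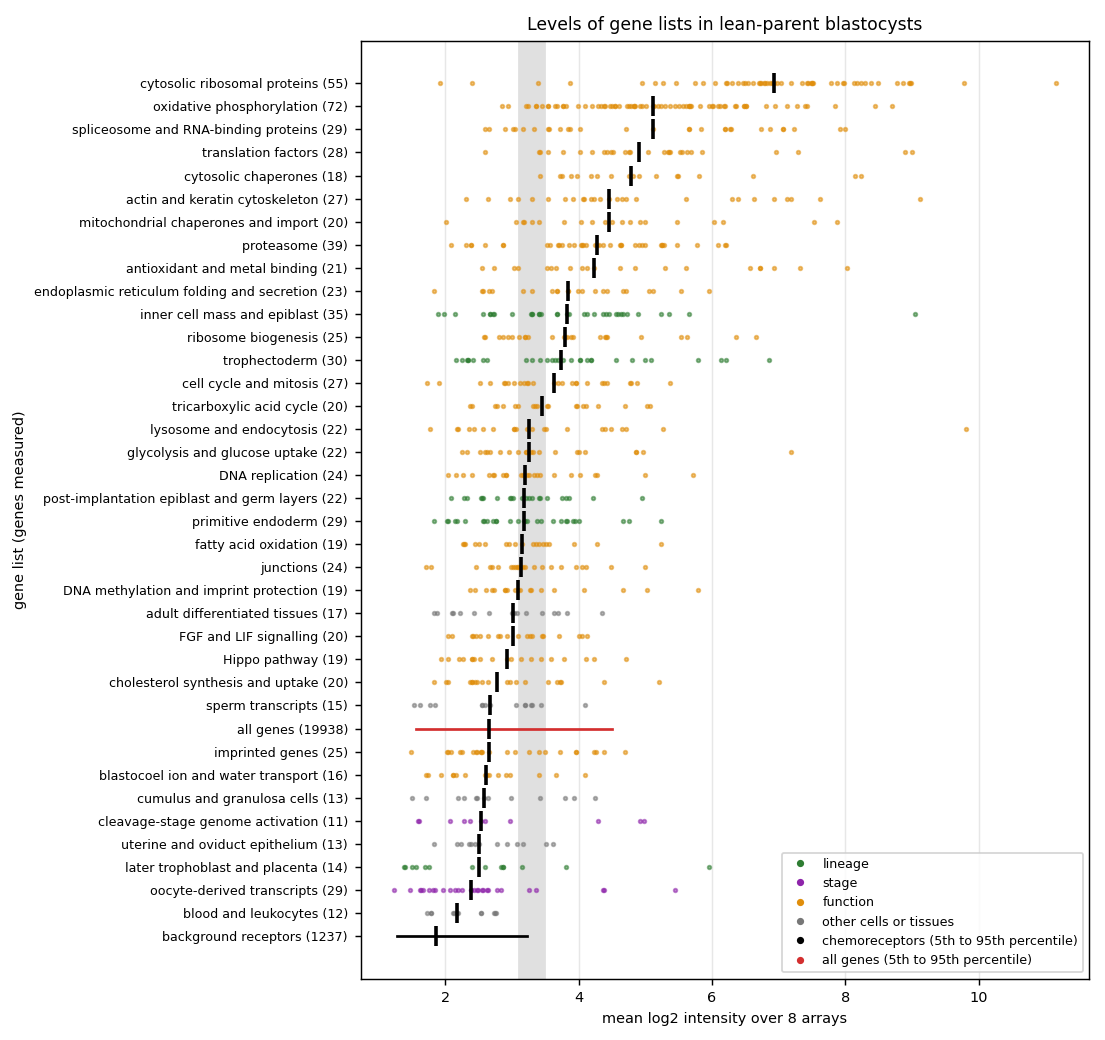
Mean log2 intensity over the 8 lean-parent arrays (horizontal axis) for the genes of each list (1 point per gene, black bar at the median), with the number of measured genes in parentheses and the list kind in colour. The grey band is the range of the array backgrounds (3.11 to 3.49), and lines show the 5th to 95th percentile of the 1237 chemoreceptors and of all 19938 genes. Ribosomal proteins have the highest median (6.93), all 12 blood genes lie below the band, and the median of the chemoreceptors is 1.85.

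Set by set, 48 of 55 cytosolic ribosomal protein genes were well detected, 6 partly and 1 not, with a median of 6.93 against 2.66 for all genes. Their share of 87.3% compares with 14.4% of all genes, and 28 of them were among the 100 brightest genes. Rpl30 (1.92 ± 0.41) was the exception without any array above background, and Rpl12 (2.40 ± 0.46) passed on 1 array. Both proteins are ordinary parts of the large subunit, and each of their probe sets gives only the signal of its own probes.

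Many ribosomal protein transcripts begin with a C followed by a run of pyrimidines, the 5′ terminal oligopyrimidine tract through which their translation follows nutrient signals. The 30 bases from 10 before to 20 after the first listed RefSeq start (build GRCm38.p6) are shown for the genes of the translation machinery among the 25 brightest that have a listed promoter and, for comparison, for 3 lineage genes. Capitals mark the longest run of 8 or more pyrimidines (C or T) on the strand with the sequence of the transcript. A sequence without capitals holds no such run. A marked run can lie before or after the start and then is not such a tract at the listed start. The run of Krt8 begins 10 bases before the start, and that of Rps12 begins at position 9 after it.
Rps12 (chr10:23787190-23787219, minus strand): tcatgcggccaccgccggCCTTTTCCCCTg
Rpl27a (chr7:109519185-109519214, plus strand): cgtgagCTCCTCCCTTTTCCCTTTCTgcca
Rps6 (chr4:86857348-86857377, minus strand): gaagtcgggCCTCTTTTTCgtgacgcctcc
Eef1a1 (chr9:78481705-78481734, minus strand): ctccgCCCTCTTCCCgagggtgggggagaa
Rpl36a (chrX:134585644-134585673, plus strand): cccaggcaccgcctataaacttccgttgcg
Tpt1 (chr14:75845246-75845275, plus strand): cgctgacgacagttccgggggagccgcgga
Rps21 (chr2:180257369-180257398, plus strand): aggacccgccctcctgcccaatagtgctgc
Krt8 (chr15:102004323-102004352, minus strand): CTCTTCTTTTataaagggccttcgctgggc
Cdx2 (chr5:147307230-147307259, minus strand): ggcctgggactccgcgagccaacctgcggc
Nanog (chr6:122707479-122707508, plus strand): gggcgtgggtgccgcctgggtgcctgggag
Of the 44 ribosomal protein genes with a listed promoter, 13 (29.5%) held such a run in this window, against 11.2% of all 27025 promoters. The share was 14.3% (10 of 70) among the 100 brightest genes and 31.6% (6 of 19) in the primitive endoderm list, which is dim. A run of 8 purines, the same motif on the other strand, was found in 13.1% of all promoters and 4.55% of the ribosomal protein genes. These are matches of letters and give no measure of translation.

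Of 30 measured trophectoderm genes, 14 were well detected, 9 partly and 7 not (46.7% well detected), with a median of 3.73. This share was higher than that of the inner cell mass list (40%), but the order of both lists was not stable. With the 99th percentile of the chemoreceptors as background, 3 of 30 trophectoderm and 5 of 35 inner cell mass genes were well detected, and on the female arrays alone 18 and 21. Krt8 and Krt18, the keratin pair of the first embryonic epithelium, led with 6.85 ± 0.61 and 6.14 ± 0.89. Krt8 read 6.37, 7.15, 6.41 and 6.56 in the female pools and 6.40, 7.36, 8.04 and 6.5 in the male pools, so the sexes overlapped and male array 3 was highest. Fabp3, a fatty acid carrier, stood at 6.22 ± 1.40, and its values of 3.74 on male array 4 and 4.61 on male array 1 lay below the 6.31 to 7.81 of the other arrays.

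The transcription factors that specify the trophectoderm had lower and steadier signals. Tead4, which acts upstream of Cdx2, averaged 5.08 ± 0.22, and its SD was 0.37 once arrays were rescaled to a common mean and SD. The brightest chemoreceptor stood at 5.12, and the well detected chemoreceptors had a median SD of 0.236. A signal of this size and steadiness therefore does not by itself show the transcript. Cdx2, the factor that represses pluripotency genes in outer cells, read 4.34, 5.20, 4.67 and 4.89 in the female pools and 4.05, 4.68, 4.61 and 4.05 in the male pools, a mean of 4.56 ± 0.40. Eomes (4.19 ± 0.24), Tfap2c (4.02 ± 0.16), Gata2 (3.77 ± 0.18), Msx2 (3.65 ± 0.23), Gata3 (3.60 ± 0.21) and Tfap2a (3.42 ± 0.15) exceeded the background on all 8 arrays by smaller margins. The remaining well detected members were Dppa1 (4.99 ± 0.49), the tight junction protein Cldn4 (4.18 ± 0.32) and the protease Tmprss2 (3.89 ± 0.19).

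Several trophectoderm genes passed on most arrays only. The tetraspanin Tspan8 had a high mean of 5.78 ± 1.44, with 2.84 on male array 4 and 4.55 on male array 1 against 6.17 to 7.60 elsewhere. Id2, an inhibitor of helix-loop-helix factors and an early mark of outer cells, averaged 4.80 ± 1.03 with its 2 lowest values, 3.37 and 3.50, on the same arrays. Slc2a3, a glucose transporter, averaged 4.12 ± 0.49, Gm2a 4.02 ± 0.70, Lcp1 3.70 ± 0.51 and Hand1 3.53 ± 0.31. Wnt7b (3.29 ± 0.21), Ptges (3.21 ± 0.29) and Krt7 (2.62 ± 0.33) were near the background. Elf5 (2.35 ± 0.49), Krt19 (2.32 ± 0.21), Fgfr2 (2.34 ± 0.15), Ascl2 (2.42 ± 0.24), Plac1 (2.56 ± 0.33), Atp12a (2.16 ± 0.23) and Mbnl3 (2.25 ± 0.18) did not exceed it on any array. Elf5 and Ascl2 are known from the extraembryonic ectoderm and its stem cells, which form after implantation.

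Genes of the inner cell mass and epiblast gave a similar picture, with 14 of 35 well detected, 14 partly and 7 not (40% well detected) and a median of 3.82. Dppa5a, an RNA-binding protein of pluripotent cells, was by far the brightest and read 8.99, 10.11, 9.90 and 9.86 in the female pools and 8.06, 9.87, 9.83 and 5.75 in the male pools. Pou5f1, the central pluripotency factor Oct4, read 5.32, 6.0, 5.57 and 5.89 in the female pools and 5.28, 6.14, 5.95 and 2.65 in the male pools. Both genes were lowest on male array 4, where Pou5f1 did not exceed the background. Dppa5a was also low on male array 1, while Pou5f1 kept within 5.28 to 6.14 on the other 7 arrays. Dppa3, a maternal-effect protein that guards DNA methylation, averaged 5.66 ± 1.72 and was again lowest on male array 4 (2.45) and male array 1 (3.90). The second probe set of Dppa3 read 3.80 and passed on 5 arrays.

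Nanog, which keeps the epiblast undifferentiated, was steadier and read 4.57, 4.70, 4.6 and 4.61 in the female pools and 4.08, 4.79, 4.77 and 4.32 in the male pools. Sall4, a zinc finger partner of Pou5f1, averaged 5.23 ± 0.23, and the Krüppel-like factors Klf2, Klf5 and Klf4 averaged 4.67 ± 0.39, 4.63 ± 0.19 and 4.41 ± 0.19. Tfcp2l1, a factor of naive pluripotency, stood at 4.36 ± 0.16 and the cell cycle factor Mybl2 at 4.89 ± 0.31. The ligands Nodal (4.23 ± 0.15) and Fgf4 (3.67 ± 0.20), the latter being the signal by which epiblast cells instruct primitive endoderm, were well detected. Tdgf1, the coreceptor of Nodal, varied more, from 3.73 on male array 4 to 6.31 on female array 14. Dppa2 (4.59 ± 0.57), Utf1 (4.08 ± 0.26) and the methylcytosine dioxygenase Tet1 (3.82 ± 0.31) complete the well detected members. The second probe set of Dppa2 read 3.97 and passed on 7 arrays. The other sets of Tet1 read 3.36 and 2.79 and passed on 4 and 2 arrays.

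Sox2, the partner of Pou5f1 on DNA, was above background on 3 arrays only, with 2.74, 4.01, 2.84 and 3.96 in the female pools and 3.24, 2.50, 4.24 and 2.78 in the male pools. High and low values occurred in both sexes. Fbxo15 (4.45 ± 1.01), L1td1 (4.12 ± 0.55), Zfp42 (3.85 ± 0.42), Bmp4 (3.43 ± 0.19) and Gdf3 (3.40 ± 0.18) passed on 7 arrays and Tbx3 (3.67 ± 0.36) on 6. Nr5a2 (3.41 ± 0.33), Lin28a (3.30 ± 0.37), Gbx2 (3.30 ± 0.23) and Dppa4 (3.0 ± 0.93) passed on 4 arrays and Tet2 (2.56 ± 0.37) on 1. Esrrb (2.72 ± 0.22), Prdm14 (2.73 ± 0.24), Nr0b1 (1.88 ± 0.22), Pecam1 (2.67 ± 0.22), Morc1 (2.14 ± 0.23), Tcl1 (1.98 ± 0.21) and Dnmt3l (2.68 ± 0.28) passed on none. Spp1 and Tdh had no probe set with a single symbol and were not analysed here.

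The primitive endoderm list had 8 of 29 genes well detected (27.6%), 10 partly and 11 not, and a median of 3.17, below the highest array backgrounds. With the 99th percentile as background 3 of 29 were well detected. Its brightest gene was Dab2, an endocytic adaptor that positions this epithelium, at 5.24 ± 0.62. Its second probe set read 1.73, so that level rests on 1 of 2 sets. Amn (4.76 ± 0.17) and Lrp2 (4.0 ± 0.61), which act in endocytic uptake in the visceral endoderm, were well detected, as were Cited1 (4.66 ± 0.14), Col4a2 (3.91 ± 0.17), Sparc (3.82 ± 0.23) and Sox7 (3.74 ± 0.29). All of these lay below the brightest chemoreceptor (5.12), and those other than Lrp2 had SDs near the chemoreceptor median of 0.236. Such signals do not by themselves show the transcripts.

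Of the specifying factors, Gata6 read 3.80, 3.80, 4.08 and 3.94 in the female pools and 3.44, 3.87, 3.78 and 3.73 in the male pools, above background on every array by a small margin. Gata4, which acts after Gata6, exceeded the background on 4 arrays (3.22 ± 0.35), Sox17 on 1 (3.08 ± 0.27) and Pdgfra, the receptor used to sort these cells, on 1 (2.71 ± 0.34). The basement membrane genes Lamb1 (3.61 ± 0.14) and Lamc1 (3.37 ± 0.45) passed on 7 and 6 arrays, Fn1 (3.20 ± 0.21) on 2, and Nid2 (3.17 ± 0.28) and Col4a1 (2.98 ± 0.12) on 1. Apoe (3.95 ± 0.48) and Hnf4a (3.44 ± 0.24) passed on 7. Not above background were Foxa2, Lama1, Serpinh1, Cubn, Aqp8, Creb3l2, Rspo3, P4ha2, Ttr, Afp and Pth1r, with means between 1.82 and 2.77. Ttr and Afp are products of the visceral endoderm after implantation.

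**Figure D2:**
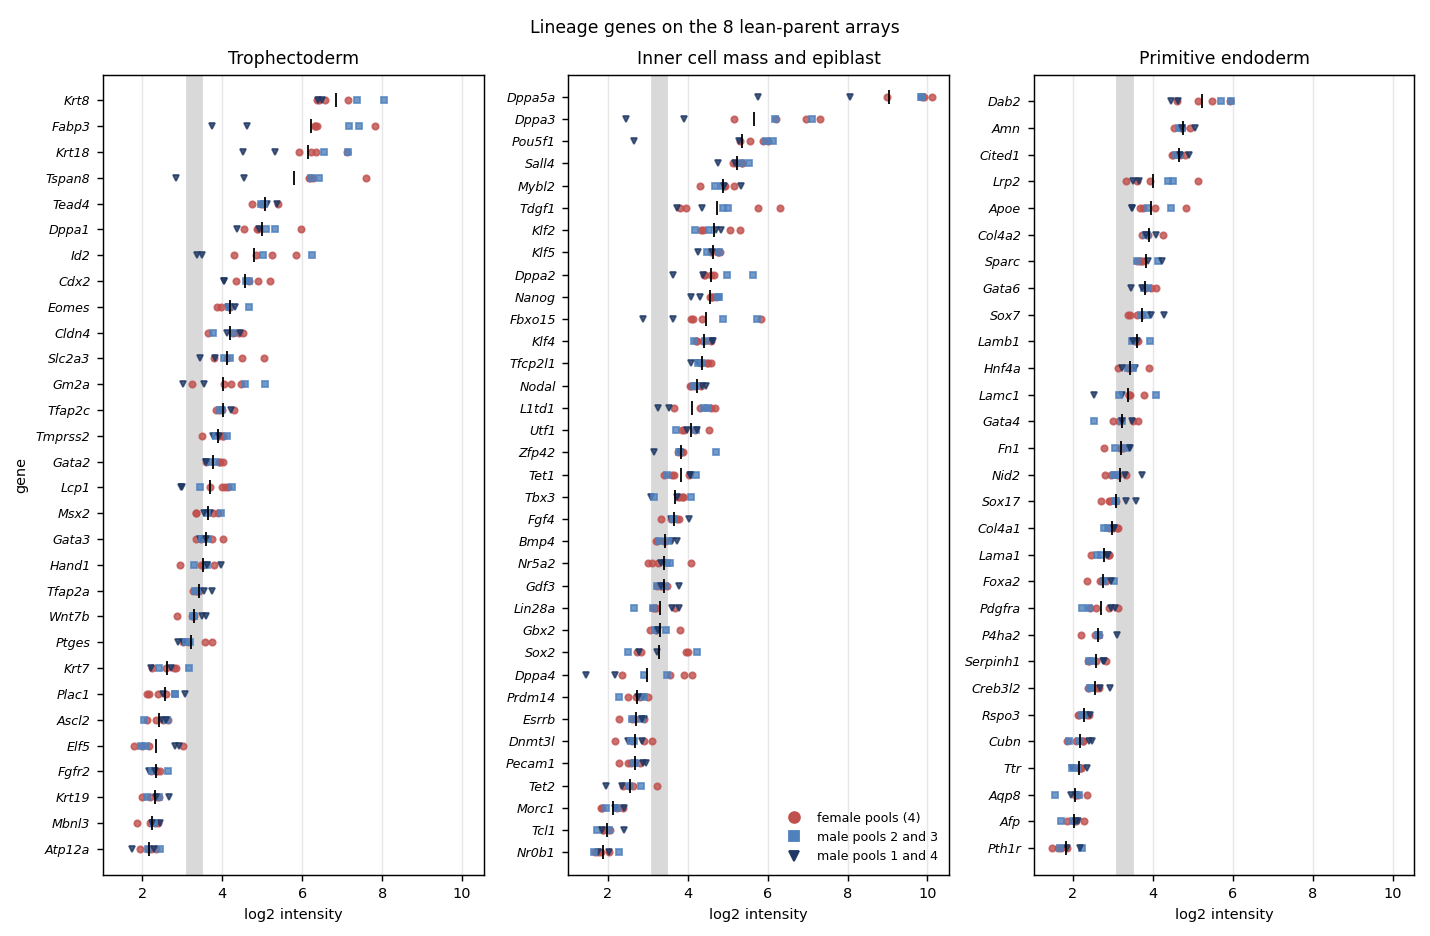
Log2 intensity (horizontal axis) of every measured gene of the trophectoderm, inner cell mass and primitive endoderm lists on the 8 arrays, ordered by mean (black tick). Circles are female pools, squares male arrays 2 and 3, triangles male arrays 1 and 4, and the grey band is the range of the array backgrounds (3.11 to 3.49). Male array 4 lies far left for Dppa5a (5.75), Pou5f1 (2.65), Dppa3 (2.45) and Tspan8 (2.84), while Nanog, Gata6 and Tead4 are close together.

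The numbers of well detected lineage genes depended on the arrays used. Without male arrays 1 and 4, an exclusion chosen after seeing the data, 18 trophectoderm, 20 inner cell mass and 12 primitive endoderm genes exceeded the background on all 6 remaining arrays, beside 3445 (17.3%) of all genes. Without male array 4 alone the numbers were 16, 18 and 11, beside 3168 genes. Pou5f1, Tspan8 and Dppa3 were counted as partly detected because of male array 4.

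Genes of earlier and later stages showed how far the lists separate stages. Of 29 transcripts stored in the oocyte, 3 were well detected and 23 were not above background, a share of 10.3%. The 3 were Khdc3 (5.44 ± 0.63) and Ooep (4.37 ± 0.30), parts of the subcortical maternal complex, and Zar1 (4.38 ± 0.27), and the dimmest were Bcl2l10 (1.46 ± 0.28) and Omt2a (1.23 ± 0.14). Of 11 cleavage-stage genes, 2 were well detected, Pramel7 (4.98 ± 0.75), which is known from the inner cell mass, and Eif1a (4.92 ± 0.44). Pramel6 (4.30 ± 0.76) passed on 6 arrays, and Usp17la and Tdpoz3 stood at 1.61 ± 0.46 and 1.59 ± 0.24.

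Later genes were not all below the background by the same measure. Of 22 genes of the post-implantation epiblast and germ layers, 5 (22.7%) were well detected, namely the mesodermal or neural factors Nkx2-5 (4.95 ± 0.15), Tbx6 (4.21 ± 0.18), Myod1 (3.85 ± 0.30), Hoxb1 (3.75 ± 0.19) and Tal1 (3.52 ± 0.15), while Pax3 (2.29 ± 0.20) and Otx2 (2.08 ± 0.17) were at the low end. The 5 well detected genes lay below the brightest chemoreceptor (5.12), and the well detected chemoreceptors had a median SD of 0.236. Signals of this size and steadiness do not by themselves show the transcripts. Of 14 genes of later trophoblast, 2 (14.3%) were well detected. They were Syna (5.95 ± 0.24), a retroviral envelope gene that fuses cells of the placental labyrinth, and Rhox6 (3.82 ± 0.32), whereas Synb stood at 3.14 ± 0.24 and the prolactin family genes Prl8a9 and Prl2b1 at 1.39 ± 0.19 and 1.38 ± 0.13.

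Lists of maternal and sperm cells that might accompany the embryos were examined next, beside 12171 of all 19938 genes not above background. None of the 12 blood and leukocyte genes exceeded the background on any array, with S100a9, Cd3e and Cd79a at 2.76, 2.75 and 2.73 and Ppbp and Lyz2 at 1.78 and 1.72. Of 13 uterine and oviduct genes, 1 was well detected, Wnt7a (3.61 ± 0.22), and of 15 sperm transcripts 1, Prm1 (4.09 ± 0.24). Both counts were 2 without female array 15. Not above background on any array were 8 of the uterine and 9 of the sperm genes. Of 13 cumulus and granulosa genes 8 were not above background, but Amh (4.25 ± 0.15), Foxl2 (3.92 ± 0.31) and Inha (3.80 ± 0.29) were well detected, while Tnfaip6 and Ptx3, which cumulus cells make in quantity, stood at 1.71 and 1.51. The adult tissue genes Ckm of muscle (4.35 ± 0.22), Acta1 of muscle (3.82 ± 0.12), Apoa1 of liver (3.69 ± 0.16) and Mbp of myelin (3.63 ± 0.20) were also well detected, 4 of 17 or 23.5%. The levels of these 4 genes lie in the same range as those of Eomes, Gata2 and Gata3, so a signal of this size does not by itself show the transcript in the embryo.

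Metabolic genes differed widely between pathways. Of 72 genes of oxidative phosphorylation, 51 (70.8%) were well detected and 21 partly, with a median of 5.12, and 63 were well detected without male arrays 1 and 4. The brightest after Cox6c and Cox6b1 was Atp5g3 (7.84 ± 1.16), which encodes the proton-carrying ring subunit of the ATP synthase, and the dimmest were Ndufv1 (2.95 ± 0.19) and Ndufs1 (2.85 ± 0.30), core subunits of complex I that passed on 1 array each. In the tricarboxylic acid cycle 7 of 20 genes (35%) were well detected, led by Idh3g (5.07 ± 0.38), Mdh2 (5.02 ± 0.45) and Pdha1 (4.69 ± 0.65). Aco1 (2.75 ± 0.18), Mdh1 (2.40 ± 0.22) and Ogdh (2.38 ± 0.19) were not above background.

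Glycolysis and glucose uptake had 6 of 22 genes well detected (27.3%), with Hk1 at 7.18 ± 1.54, Tpi1 at 4.96 ± 0.24 and Pkm at 4.86 ± 0.46. The second probe set of Hk1 read 2.01, so its level is not settled. The phosphofructokinase genes Pfkl, Pfkm and Pfkp (2.33, 2.24 and 2.63), Aldoc (2.67), Ldhb (2.52) and Slc2a2 (2.59) were not above background, and Gapdh, Gpi1 and Eno1 had no probe set with a single symbol. Fatty acid oxidation had 2 of 19 well detected (10.5%), but 4 without male array 4 and 5 without male arrays 1 and 4. Etfa (5.23 ± 1.23) and Etfb (4.28 ± 0.98), which pass electrons from acyl-CoA dehydrogenases to the respiratory chain, were the brightest and passed on 6 and 5 arrays, and Acadvl (3.93 ± 0.26) passed on 8. Slc25a20, Eci1, Eci2, Acot2, Etfdh and Echs1 lay between 2.26 and 2.59.

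Cholesterol synthesis and uptake had 6 of 20 genes well detected (30%). Insig1, which restrains the pathway when sterols are plentiful, stood at 5.21 ± 0.29, Fdps at 4.38 ± 0.25 and the regulator Srebf2 at 3.73 ± 0.23. Of the genes not above background, Srebf1 was the brightest (2.92 ± 0.17), followed by Nsdhl, Mvd, Fdft1, Ebp, Pmvk, Sc5d, Lss, Hmgcs1 and Idi1, with Idi1 at 1.83 ± 0.43. Of 21 antioxidant and metal-binding genes, 12 (57.1%) were well detected, led by Fth1, the ferritin heavy chain (8.03 ± 1.78), Sod1 (7.32 ± 0.87) and Txn1 (6.93 ± 1.57). Prdx3 (2.73 ± 0.43) and Prdx4 (2.55 ± 0.59) passed on 1 array each and Nfe2l2, a regulator of such genes, on none (3.03 ± 0.10).

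The machinery of protein synthesis, folding and turnover was bright as a group but depended strongly on the array. Of 28 translation factors, 15 were well detected (53.6%), with Eif2s2 (7.28 ± 2.03) the brightest after Eef1a1 and Tpt1 and Eif3b (2.60 ± 0.24) the only one not above background. Of 18 cytosolic chaperones 8 were well detected (44.4%), led by Hsp90aa1 (8.23 ± 1.70), Hspa8 (8.15 ± 1.36) and Dnaja1 (6.62 ± 1.89). Of 39 proteasome genes 15 were well detected (38.5%), led by Psma6 (6.21 ± 1.99), Psmc5 (6.20 ± 1.28) and Psma7 (6.08 ± 1.10). Without male arrays 1 and 4 these counts became 25, 16 and 30. The proteasome genes not above background on any array were Psmb8 and Psmb11, which belong to the immunoproteasome and the thymoproteasome, Psma8 of the testis, Psmd5 and Psmd9.

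Other housekeeping groups followed. In the endoplasmic reticulum list 11 of 23 genes (47.8%) were well detected, with the chaperones Canx (5.95 ± 1.37) and Hsp90b1 (5.53 ± 1.24) and the channel subunit Sec61b (5.12 ± 0.83) in front, while the stress regulators Atf6 (2.66) and Xbp1 (2.54), with Sec61a1, Dnajc3 and Herpud1 (1.82), were not above background. Mitochondrial chaperones and import had 11 of 20 (55%), with Hspe1 at 7.87 ± 1.32, Tomm7 at 7.53 ± 1.24, Timm23 at 6.16 ± 0.74 and Timm9 at 2.0 ± 0.28. Spliceosome and RNA-binding genes had 16 of 29 (55.2%), with Snrpc (8.0 ± 0.18), Snrpg (7.91 ± 1.43) and Srsf3 (7.23 ± 1.23) brightest and U2af2 (2.65) and Sf3a1 (2.59) not above background. Ribosome biogenesis had 9 of 25 (36.0%), led by the nucleolar proteins Ncl (6.67 ± 1.21) and Npm1 (6.36 ± 1.66) and by Polr1d (5.62 ± 0.93). The last 2 counts became 20 and 13 without male arrays 1 and 4.

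Proliferation genes had list medians close to the background, 3.63 for the cell cycle and 3.19 for DNA replication. In the cell cycle list 10 of 27 (37.0%) were well detected, led by the securin Pttg1 (5.37 ± 0.78), the survivin gene Birc5 (4.88 ± 0.43) and the cyclin Ccnb2 (4.79 ± 0.43), whereas Aurkb (2.94), Bub1 (1.90) and Ccne2 (1.73) were not above background. In the DNA replication list 5 of 24 (20.8%) were well detected, with the sliding clamp Pcna at 5.72 ± 1.29, Gins2 at 5.0 ± 0.17 and Rpa2 at 4.27 ± 0.22. Cdc45, Mcm3, Pola1, Rpa1 and Pole, which act at the same forks, lay between 2.04 and 2.66 and were not above background.

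Genes of the cytoskeleton were well detected more often than genes of the junctions. Of 27 actin and keratin genes 18 (66.7%) were well detected, or 22 without male arrays 1 and 4, with the myosin light chain Myl6 (7.62 ± 1.23) and Actb (7.19 ± 1.55) next to Tmsb10, and with Capg (2.63) and Vil1 (2.31) not above background. Of 24 junction genes 5 (20.8%) were well detected, among them Cldn7 (4.99 ± 0.36) and Cldn3 (4.11 ± 0.22), and Epcam (4.48 ± 1.10) passed on 6 arrays. The desmosomal genes Dsg2 (2.45), Dsc2 (2.70), Dsc3 (1.78) and Pkp2 (2.78) and the tight junction genes Ocln (1.71) and Marveld2 (2.67) were not above background. Of 16 genes of ion and water transport into the cavity, 2 were well detected (12.5%), the water channel Aqp3 (4.09 ± 0.24) and Fxyd4 (3.66 ± 0.31), and the sodium pump subunit Atp1b1 (3.40 ± 0.42) passed on 5.

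Signalling and chromatin genes were mostly near the background. In the Hippo list 5 of 19 genes (26.3%) were well detected, led by Tead1 (4.70 ± 0.39), the coactivator Wwtr1 (4.22 ± 0.27) and the target Ccn2 (4.11 ± 0.22), whereas Nf2, Amot, Amotl1, Ajuba, Lats1, Lats2, Mob1a, Stk4, Wwc1 and Tead3 had means of 1.93 to 3.14 and were not above background. In the FGF and LIF list 4 of 20 (20%) were well detected, with Grb2 (4.13 ± 0.26), Fgfr3 (4.06 ± 0.19) and Stat3 (4.0 ± 0.18) in front, and the LIF receptor genes Lifr (2.04) and Il6st (2.10) not above background. In the list of DNA methylation and imprint protection 2 of 19 (10.5%) were well detected, the deacetylase Hdac2 (5.79 ± 1.09) and the Polycomb subunit Suz12 (5.02 ± 1.03). The count was 4 without male array 4. Dnmt3a (3.04), Zfp57 (2.69) and Setdb1 (2.37) were not above background on any array.

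Of 25 imprinted genes, 7 (28%) were well detected and 14 were not above background. Dlk1 (4.70 ± 0.28), a ligand of the Notch family, Cdkn1c (4.39 ± 0.14), an inhibitor of the cell cycle, and Phlda2 (4.26 ± 0.26), which restrains placental growth, were the brightest. Mest (2.53 ± 0.20), Peg3 (2.53 ± 0.14), Plagl1 (2.56 ± 0.25), Grb10 (2.66 ± 0.20), Nnat (2.93 ± 0.06) and Impact (2.08 ± 0.19) were among those not above background. In the lysosome list 7 of 22 genes (31.8%) were well detected, with Psap (5.27 ± 0.99) and Atp6v1a (4.70 ± 0.22) next to Cd63, and with Lamp2 (2.18) and Tfrc (1.77), the transferrin receptor, among those not above background.

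Variation among the 8 arrays was small for most genes and large for bright ones. The median SD of the 2880 well detected genes was 0.237, equal in size to that of the 29 well detected chemoreceptors (0.236), and it was 0.234 after the means of the sexes were removed. An SD under 0.2 was found for 882 genes and an SD over 1 for 117. When these genes were split by level into 5 groups of 576, the median SD was 0.203, 0.221, 0.236, 0.250 and 0.453 from the dimmest to the brightest group, and 114 of the 117 genes with an SD over 1 were in the brightest. Median SDs were 0.979 for ribosomal proteins, 0.856 for cytosolic chaperones, 0.785 for proteasome genes and 0.774 for translation factors. They were lower for the trophectoderm (0.299), inner cell mass (0.277) and primitive endoderm (0.222) lists. These medians are over the measured members of each list and carry no test. The lists also differed in brightness, with median levels of 4.27 to 6.93 in the former and 3.17 to 3.82 in the lineage lists. Because SD rose with level, these medians do not show that lineage genes are steadier at a given level. The brightest lineage genes, Dppa5a, Krt8, Fabp3, Krt18, Tspan8 and Dppa3, had SDs from 0.61 to 1.72.

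**Figure D3:**
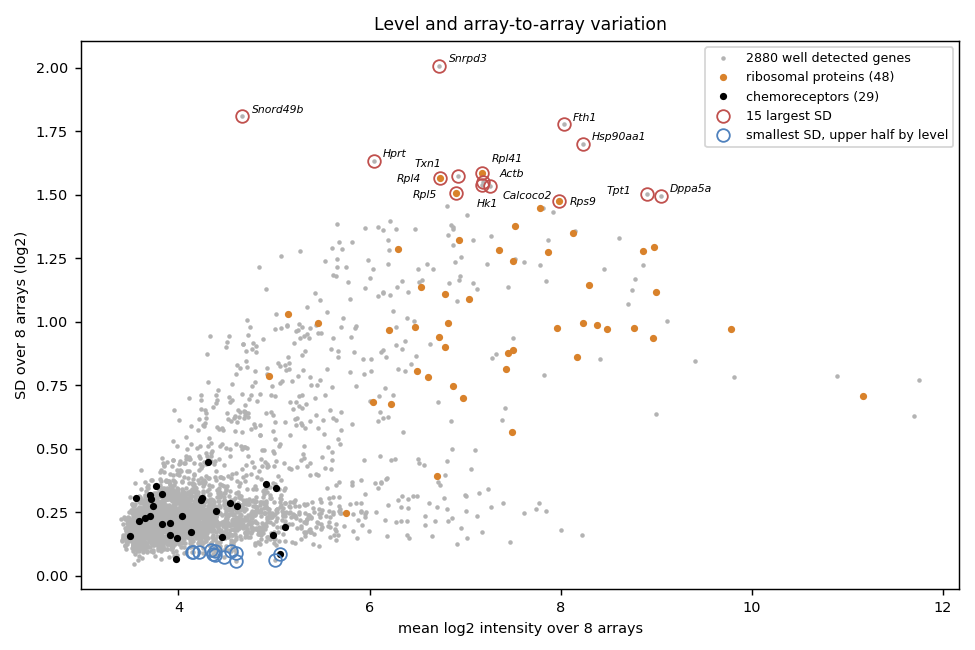
SD over the 8 arrays in log2 units (vertical axis) against mean log2 intensity (horizontal axis) for the 2880 well detected genes, with ribosomal proteins, chemoreceptors, the 15 genes of largest SD and the steadiest genes marked. Genes with an SD over 1 lie almost all above a level of 4.90, and the 29 chemoreceptors have a median SD of 0.236, against 0.237 for all genes shown.

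The largest differences between arrays followed the signal spread. The first principal component of the well detected genes held 66.8% of their variance and followed the spread across the 8 arrays with Pearson r = 0.985 (exact permutation p = 2.48e-05, the smallest that 8 arrays allow) and Spearman rho = 1 (exact permutation p = 4.96e-05). Without male arrays 1 and 4, which lie farthest from the median spread, r was 0.981 (exact permutation p = 0.00139, n = 6). The component was kept from all 8 arrays here, so these 2 arrays still helped to set it. Both measures come from 1 set of values and are partly bound to go together, so the p-values are no independent evidence. The correlation describes how the arrays differ and names no source. With 4 arrays per sex, no correlation within a sex is given.

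Along this order the mean of the ribosomal protein list went from 5.33 on male array 4 and 5.74 on male array 1 through 6.76 on female array 13 to between 7.22 and 7.82 on the other arrays. Oxidative phosphorylation ranged from 4.31 to 5.70 and the cytosolic chaperones from 3.57 to 6.22, both lowest on male array 4. The trophectoderm and inner cell mass lists ran from 3.50 on male array 4 to 4.13 and 4.17. The primitive endoderm list kept within 3.12 to 3.25, and the chemoreceptors, highest on male array 4, within 1.88 to 2.15.

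**Figure D4:**
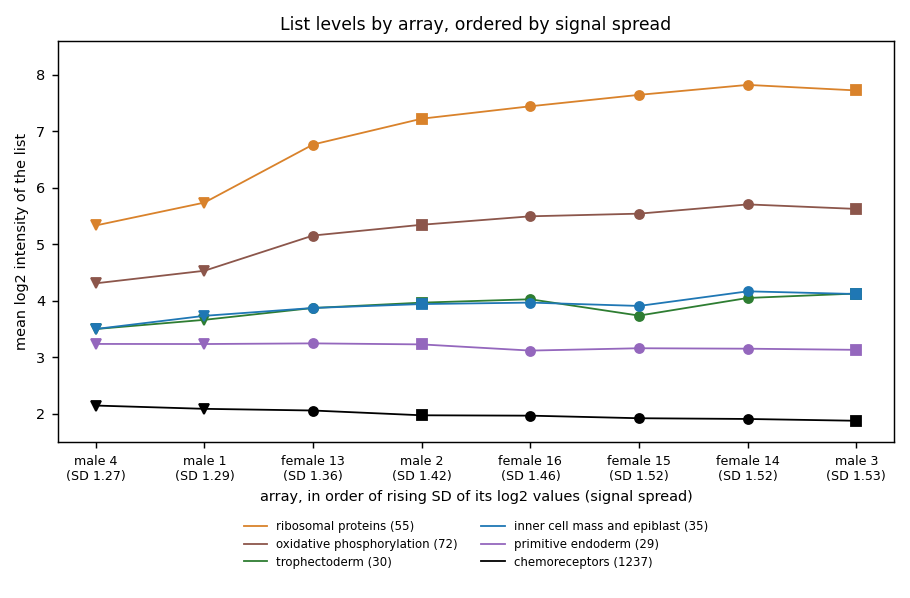
Mean log2 intensity of 6 gene lists (vertical axis, numbers of genes in the legend) on the 8 arrays, placed in order of rising signal spread (SD of all log2 values of an array, given under its name). Circles are female pools, squares male arrays 2 and 3, triangles male arrays 1 and 4. The ribosomal protein list goes from 5.33 on male array 4 to 7.82 on female array 14, while the primitive endoderm list stays between 3.12 and 3.25.

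The 15 well detected genes with the largest SD were Snrpd3 (2.01), Snord49b (1.81), Fth1 (1.78), Hsp90aa1 (1.70), Hprt (1.63), Rpl41 (1.59), Txn1 (1.57), Rpl4 (1.56), Actb (1.55), Hk1 (1.54), Calcoco2 (1.53), Rpl5 (1.51), Tpt1 (1.5), Dppa5a (1.5) and Rps9 (1.47). Some of these SDs rest on a single probe set. The second sets of Calcoco2 and Rps9 had SDs of 0.633 and 0.689, and that of Hk1 was not above background. The other sets of Hsp90aa1, Rpl41, Rpl5 and Tpt1 had SDs of 1.38 to 1.69. For 14 of the 15 genes, male arrays 1 and 4 gave the 2 lowest values, as they did for 74 of the 100 brightest genes. Snrpd3, a core protein of spliceosomal ribonucleoproteins, read 5.25, 7.80, 8.47 and 8.17 in the female pools and 3.94, 7.04, 9.03 and 4.16 in the male pools. Fth1 read 7.88, 9.35, 9.66 and 8.48 in the female pools and 5.86, 8.67, 9.51 and 4.84 in the male pools. In both genes female array 13 was the lowest of its sex, as it was in signal spread.

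Actb, cytoplasmic actin and a common reference gene, read 7.37, 8.23, 7.70 and 7.83 in the female pools and 6.46, 7.72, 8.52 and 3.67 in the male pools. Hprt, a purine salvage enzyme on the X chromosome and another common reference, read 4.51, 7.71, 7.58 and 6.84 in the female pools and 3.75, 6.46, 7.33 and 4.19 in the male pools. Neither was steady over these pools. Snord49b, a small nucleolar RNA, was the exception to the order of spread, since a single high value of 8.81 on female array 16 stood above 3.52 to 5.67 on the other arrays.

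The ranking changed little when arrays were rescaled to a common mean and SD, where 12 of the 15 genes remained and Gabarapl2, Fabp3 and Ndufc2 entered. Without male arrays 1 and 4, 3 of the 15 remained, Snord49b (SD 2.06, n = 6), Snrpd3 (1.34) and Hprt (1.19). Chosen after their values were seen, Wtap (1.33), part of the complex that methylates messenger RNA, the import channel subunit Tomm5 (1.27) and the signalling adaptor Ywhah (1.25) then ranked between them. Also over those 6 arrays, the most variable lineage genes were Tdgf1, Dppa3, Fbxo15 and Sox2. Some genes dropped out of the well detected set because of a single array, such as Rnf7, a component of ubiquitin ligases (7.89 ± 2.44, 2.95 on male array 4), and the noncoding RNA Malat1 (6.48 ± 1.95, 2.51 on male array 4), both chosen after their values were seen.

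**Figure D5:**
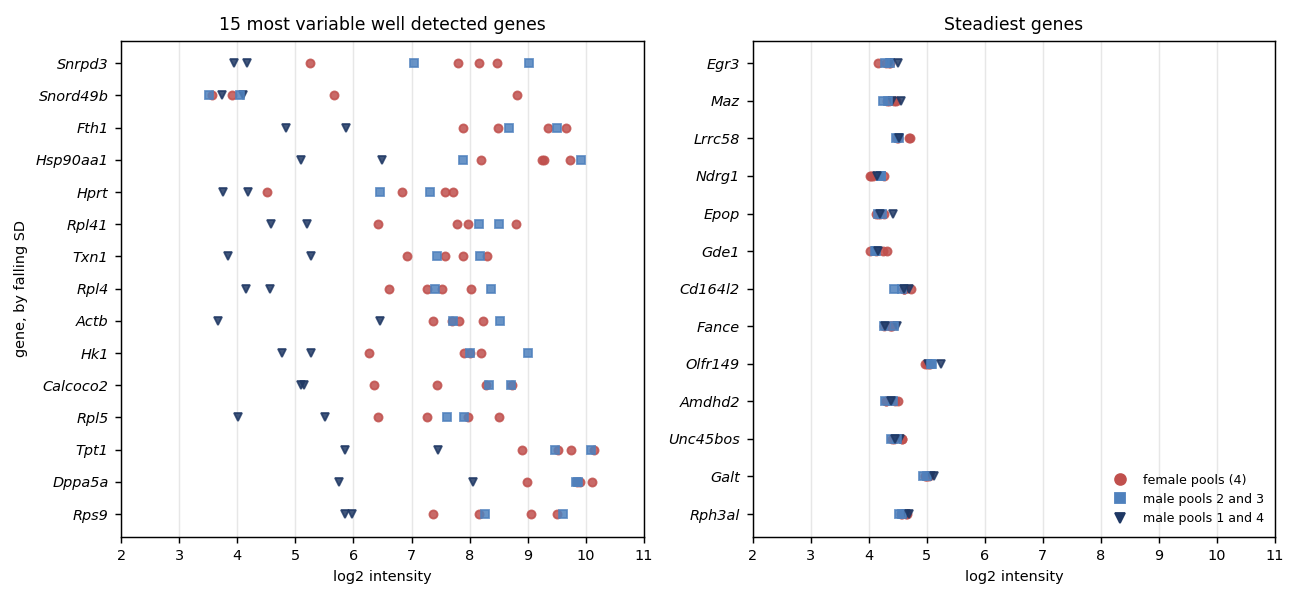
Log2 intensity (horizontal axis) on the 8 arrays of the 15 well detected genes with the largest SD (left) and of the steadiest among the 1440 brighter genes (right), on the same scale. Circles are female pools, squares male arrays 2 and 3, triangles male arrays 1 and 4. The triangles are lowest for 14 of the 15 variable genes, with Actb at 3.67 on male array 4, while the points of each steady gene nearly coincide.

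The steadiest genes among the 1440 brighter of the well detected genes were of medium brightness. Rph3al, a Rab effector of secretion, averaged 4.61 ± 0.06 and Galt, an enzyme of galactose use, 5.01 ± 0.06. Galt read 5.0, 4.98, 4.97 and 5.03 in the female pools and 5.08, 5.0, 4.93 and 5.12 in the male pools. Unc45bos, Amdhd2, Fance, Cd164l2, Gde1, Epop, Ndrg1, Lrrc58, Maz and Egr3 had means from 4.15 to 4.61 and SDs from 0.07 to 0.10. Olfr149, an odorant receptor at 5.06 ± 0.08, was also among the 15, and 2 further genes had uninformative names. None of the 15 had its lowest value on male array 1 or 4. A steady signal in this range was thus also given by a gene of the background list, so a small SD does not mark a gene as a reference for these embryos.

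A few bright genes were steady in the values as deposited. Of the 100 brightest, 15 had an SD under 0.3 and 51 an SD over 1, and 37 of the latter but 2 of the former belonged to the gene lists. The 15 were chosen after their values were seen and include Snrpc (8.0 ± 0.18), Hmgn2 (7.27 ± 0.27), Qk (7.18 ± 0.17), Cfl1 (7.12 ± 0.23), Stmn1 (6.91 ± 0.12), Mir328 (8.22 ± 0.16) and Megf6 (7.47 ± 0.13). The second and the lowest probe set read 5.31 and 3.07 for Qk and 4.73 and 2.73 for Megf6, so their levels are not settled. The second sets of Hmgn2 (6.79), Stmn1 (6.38) and Snrpc (6.27) were closer to the used ones. After the arrays were rescaled to a common mean and SD, 2 of the 15, Cfl1 and Stmn1, kept an SD under 0.3. Snrpc and Snrpd3 both encode proteins of spliceosomal particles, and their SDs of 0.18 and 2.01 became 0.52 and 1.80 after rescaling.

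Male and female pools could hardly be told apart. Xist, the noncoding RNA of X inactivation, read 2.19, 3.47, 3.54 and 2.49 in the female pools and 2.26, 1.91, 1.89 and 2.22 in the male pools. The means were 2.92 ± 0.68 (n = 4) in female and 2.07 ± 0.20 (n = 4) in male pools, and 3 of 4 female pools lay above all male pools. The exact permutation p was 0.0857 (two-sided, adjusted 0.193 over the 9 genes checked). Eif2s3y, a Y-linked translation factor gene, read 1.83, 2.30, 2.77 and 1.41 in the male pools and 1.40, 1.45, 1.10 and 1.35 in the female pools. Of the male pools 3 lay above all female pools and male array 4 did not (exact permutation p = 0.0571, adjusted 0.193).

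Uty, a Y-linked histone demethylase, was the only one of the 9 genes whose sexes did not overlap. It averaged 2.08 ± 0.22 in male and 1.67 ± 0.19 in female pools, and 4 of 4 males exceeded all females with an exact permutation p = 0.0286, the smallest that 4 against 4 arrays allow, which was 0.193 after adjustment. Male minus female differences of the other Y-linked genes ran from −0.11 for Kdm5d to 0.26 for Usp9y, with Sry, Uba1y, Zfy1 and Zfy2 between them. None of the Y-linked genes was above background on any array, and Xist was above it on 2. The labelled sexes could therefore not be checked firmly with these probe sets.

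Across all genes, limma called 0 of 13311 genes (0%) between male and female pools at an adjusted p of 0.05, and 448 (3.37%) had an unadjusted p under 0.05, 335 of them higher and 113 lower in males. The number with an unadjusted p under 0.05 was 836 without male array 3, 690 without female array 13, 291 without male array 1, 292 without male array 4 and 292 without female array 15, each with 0 genes called. The smallest adjusted p of limma was 0.992 in this fit, but it depended on the setting. It was 0.0617 without male arrays 1 and 4, 0.0952 with signal spread as covariate and 0.184 with array weights. Under quantile normalization it was 0.0407, and in the remaining settings 0.520 or higher. The genes with the smallest unadjusted p that were higher in males were Pramel19, Zfp850, Slc15a5, Tspo and Dohh, with differences of 0.38 to 0.77. Those lower in males were Tomm6 (−0.87), Dazap2 (−1.10), Nup62 (−0.90), Xist (−0.85) and Tmem256 (−0.64). With 4 pools per sex, and 2 of the 4 male pools of low spread, differences that were not called may still exist.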

How the data were processed

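RNA from the lysates of pooled embryos was amplified and labelled with NuGEN kits and hybridised to Affymetrix Mouse Gene 1.0 ST arrays, per the labels' protocols. The authors deposited 1 log2 intensity for each probe set and array, computed by RMA, and the submitters' processing notes name the affy package. Versions and build: not given in the sources used here. RMA sets arrays to a common scale, yet the deposited arrays differ in spread, which moves bright and dim genes in opposite directions.

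Of 35556 probe sets, 21789 had 1 gene symbol in GEO's platform annotation, 1621 had several and 12146 none. The last 2 kinds were not named. Of the sets with 1 symbol, 21698 matched RefSeq gene numbers (GRCm38.p6) and 0 symbols changed. For 999 of 19938 genes with several sets, the set with the highest mean over the 24 arrays was used. The members and the 39 gene lists were chosen with earlier results of these data known. Named are the 25 brightest genes, the 15 well detected genes of largest SD (also after rescaling), the 15 of smallest SD among the 1440 brighter of them, all lineage genes (some list members are not reported here), the 3 brightest and 2 dimmest members of other lists with members that went against their list, Xist, Y-linked genes and the 5 genes per direction with the smallest p between the sexes. Names without information were counted only.

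The sexes were compared in R 4.3.3 with lmFit and eBayes of limma 3.58.1, in a fit of 6 group means to 24 arrays, with Benjamini-Hochberg adjustment over genes above the table's median on at least 4 arrays. Single genes were compared with exact permutation tests. The fit was tested on simulated data. The number of arrays limits the precision. Promoter sequences are RefSeq's. Alternatives were another background, the mean of probe sets, quantile normalization, other filters and fits, and leaving out arrays.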

Additional observations from a re-analysis of the deposited data

Results flagged for a closer look

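Over 146 named genes, 186 values were examined for a single array whose gap to the next was large against the range of all 8 arrays (Dixon's test). It marked 11 of the 186 values, in 11 genes, 4 of them through male array 4. Chance marks about 1 in 20 (5%), so this count is near what chance gives. Some of the genes had been picked for a large or a small SD, so the marks are a description and no evidence for single genes. On male array 4, Actb read 3.67 (6.46 to 8.52 on the other arrays), Dppa5a 5.75 (8.06 to 10.11), Pou5f1 2.65 (5.28 to 6.14) and the odorant receptor Olfr149 5.24 (4.97 to 5.09). On male array 1, Gdf3 read 3.79 (3.23 to 3.48) and Tcl1 2.42 (1.73 to 2.05). On male array 3, Lamb1 read 3.92 (3.48 to 3.63) and Zfp42 4.71 (3.15 to 3.88). On female array 15, Mbnl3 read 1.87 (2.20 to 2.45) and Wnt7b 2.87 (3.25 to 3.59). On female array 16, Snord49b read 8.81 (3.52 to 5.67).

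Signal was also present outside the named genes. Of the 12146 probe sets without a gene symbol, 2171 (17.9%) exceeded the background on all 8 arrays, and 20 were brighter than the highest named gene. Control sets of the array were not separated in this count, so these sets are not all to be read as transcripts.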

How the results depend on the processing

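The threshold of detection set the counts. With the 99th percentile of the chemoreceptors as background, 735 genes were well detected, with 3 trophectoderm, 5 inner cell mass, 3 primitive endoderm and 30 oxidative phosphorylation genes. With the array median they were 7690 genes, with 22, 24 and 16 of the 3 lineages. Leaving out 1 array at a time gave 2899 to 3168 genes. Without male arrays 1 and 4, the median SD of the 15 most variable genes was 0.824, against 1.56 on all 8 arrays and 1.28 to 1.67 without 1 array. The median SD of the 15 steadiest genes was 0.0885, and it became 0.175 under quantile normalization and 0.169 with rescaled arrays, so their small SD holds only for the values as deposited. A single array carried some SDs. Without female array 16 that of Snord49b was 0.738, and without male array 4 that of Actb was 0.660, of Dppa5a 0.734, of Tpt1 0.931 and of Txn1 1.04. The mean of all probe sets of a gene moved 10 of 146 mean levels, among them Baiap2l1 (8.30), Gas5 (3.91), Hk1 (4.59) and Dab2 (3.49).

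Between the sexes, quantile normalization called 1 gene, Dazap2 (−1.15 in males, adjusted p = 0.0407 in limma), and the other 15 settings called 0. The number of genes with an unadjusted p under 0.05, 448 in the report, was 1111 with array weights, 782 with signal spread as covariate, 294 without male arrays 1 and 4, 711 of 19938 without a filter and 152 of 5106 with the stricter filter. Male minus female differences changed sign for Kdm5d (−0.270 to 0.00557 without 1 array), Uba1y (−0.0191 to 0.103 without 1 array, and −0.00393 under quantile normalization) and Zfy2 (−0.0674 to 0.188 without 1 array). The causes of these changes were not tested. No paired analysis was possible because the array numbers differ between the groups. Signal over background limits all statements on dim genes.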
